A study of Homo sapiens with 2 samples.

Results

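Sarcomere genes were followed in cells of blood-generating heart-forming organoids (BG-HFOs), the 38 genes being those that code for the thick and thin filaments, the Z-disc, the M-band and the proteins that assemble and maintain them. The genes were taken by symbol from the count tables, which list 36601 genes, and all 38 had a row in both tables. The BG-HFOs were grown from hES3 NKX2.5-eGFP, a human embryonic stem cell line that carries a green fluorescent reporter at the cardiac gene NKX2-5, by embedding cell aggregates in Matrigel, modulating WNT signalling in both directions and adding cytokines and growth factors that drive haemato-endothelial fates. There were 2 organoids of this 1 condition, 32.7 and 33.10, taken on day 14 and sequenced as 1 library each from the 3′ ends of transcripts, with no untreated or otherwise changed organoid, so cells were compared with cells and not treatments with each other. Whether the organoids came from separate differentiations is not given in the labels, and p-values therefore measure the spread between these 2 libraries. Pairs of values below are for organoid 32.7 and then organoid 33.10.

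Cardiac muscle contracts when myosin heads of the thick filament pull on actin of the thin filament, a step that calcium allows by binding the troponin complex on tropomyosin. Several of these proteins come in forms from separate genes, and heart muscle exchanges them as it develops: atria keep the light chains MYL7 and MYL4 and the heavy chain MYH6, ventricles take MYL2, MYL3 and MYH7, and the fetal troponin I (TNNI1) gives way to the adult cardiac form (TNNI3). The balance between such forms is widely used to describe chamber identity and maturity of heart muscle cells made from stem cells.

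Cells were placed in a muscle group by raw counts of unique molecular identifiers (UMIs, 1 per captured molecule) and not by clusters: at least 3 UMIs of TNNC1, the calcium-binding troponin C of heart and slow muscle, and none of the endothelial gene CDH5. This TNNC1 gate held 1999 of 16792 cells and 2275 of 19893 cells. TNNC1 chose the cells and is not counted among results, which leaves 37 genes. The cut crosses a continuum: in cells with 2 UMIs of TNNC1, just outside the gate, the 37 genes made up a median of 0.762% and 0.842% of a cell's UMIs, and in cells with 3 UMIs, just inside it, 1.13% and 1.28%. Over all cells of the gate the median was 4.40% and 3.39%.

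The gate was checked against markers that it did not use. The 8 further cardiac markers (NKX2-5, GATA4, TBX5, TBX20, MYOCD, RYR2, SLC8A1 and PLN) were all present and summed to 5068 and 5475 CPM in the gate (UMIs of a gene over all UMIs of a group of cells, on a common scale), against 134 and 143 CPM in endothelial cells and 1615 and 1694 CPM in epicardial cells. The 5 markers of skeletal muscle (MYOD1, MYOG, MYF5, MYF6 and PAX7) summed to 0.205 and 0.227 CPM, with 2 and 3 of the 5 at 0. Markers of other cell types were present as well. The 5 erythroid check genes summed to 2697 and 4476 CPM in the gate, led by the embryonic globin HBZ at 1841 and 2887 CPM, and the 5 megakaryocyte genes to 974 and 2290 CPM. Of the cells in the gate 801 (40.1%) and 1109 (48.7%) also passed the gate of another lineage, most often the mesenchymal one (597 and 771 cells). A strict gate without those cells held 1198 and 1166 cells, and there the erythroid sum was 346 and 469 CPM and the megakaryocyte sum 227 and 266 CPM. The part that such cells play in a result was not tested, and results that change in the strict gate are given with both values. In all, 100 barcodes occurred in both libraries, of which 10 and 8 were in the gate.

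Sequences just upstream of 4 of the genes are shown first, because 3 of them (MYH6, MYL7 and ACTC1) were far higher in the muscle group than in endothelial cells and the other, TNNT1, was lower in that group than in 3 lineages. They are RefSeq promoters on GRCh38.p14, read 5′ to 3′ on the gene's strand, each 300 bases long and spanning the start site: chr14:23408224-23408523 for MYH6, chr7:44141283-44141582 for MYL7, chr15:34795500-34795799 for ACTC1 and chr19:55149157-55149456 for TNNT1, all on the minus strand. Capitals mark matches on either strand to TATAAA, to CATTCC (a core that TEAD factors bind), to AGATAA (a core that GATA factors bind), to the CArG box of serum response factor and to the site of MEF2 factors.
MYH6: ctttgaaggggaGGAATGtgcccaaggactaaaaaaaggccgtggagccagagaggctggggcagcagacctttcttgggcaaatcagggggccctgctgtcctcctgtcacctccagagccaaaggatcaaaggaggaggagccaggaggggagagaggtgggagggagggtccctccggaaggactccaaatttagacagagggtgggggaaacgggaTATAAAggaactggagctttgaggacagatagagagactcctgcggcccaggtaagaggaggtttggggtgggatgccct
MYL7: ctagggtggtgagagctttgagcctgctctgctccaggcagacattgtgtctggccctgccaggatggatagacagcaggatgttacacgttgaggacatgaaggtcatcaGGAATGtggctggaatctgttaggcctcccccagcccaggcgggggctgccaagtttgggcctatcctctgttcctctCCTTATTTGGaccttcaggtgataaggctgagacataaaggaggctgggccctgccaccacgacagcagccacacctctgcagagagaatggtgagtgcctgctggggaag
ACTC1: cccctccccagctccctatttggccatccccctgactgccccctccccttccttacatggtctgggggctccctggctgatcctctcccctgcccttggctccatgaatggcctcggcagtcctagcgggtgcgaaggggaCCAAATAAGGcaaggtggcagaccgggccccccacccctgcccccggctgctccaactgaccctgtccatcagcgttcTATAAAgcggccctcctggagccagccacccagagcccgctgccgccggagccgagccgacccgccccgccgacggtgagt
TNNT1: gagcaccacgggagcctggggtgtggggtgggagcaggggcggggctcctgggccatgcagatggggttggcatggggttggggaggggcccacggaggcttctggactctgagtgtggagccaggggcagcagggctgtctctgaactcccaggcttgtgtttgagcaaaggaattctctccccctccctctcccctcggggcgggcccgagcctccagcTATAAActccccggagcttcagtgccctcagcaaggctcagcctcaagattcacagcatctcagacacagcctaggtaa
In the windows shown, MYH6 held TATAAA with its first base at -30 from the start site and, further up, CATTCC at -238. MYL7 held a CArG box at -61 and CATTCC at -139, while the promoter of ACTC1 held TATAAA at -31 and a CArG box at -109. TNNT1 held TATAAA at -29 and no other of these motifs. None of these matches overlapped another. The promoter table had entries for 26 of the 38 genes, with 35 promoters. It had none for CRYAB, CSRP3, DES, MYH7, MYH7B, MYL2, MYL4, MYOM2, TCAP, TNNC1, TNNI1 and UNC45B. Of the 35 promoters 6 held a CArG box (17.1%, against 1.29% of all 35116 promoters), in ACTA1, ACTC1, LDB3, MYL7 and MYOM1. A MEF2 site was in 5 (14.3% against 2.99%), AGATAA in 9 (25.7% against 10.3%), CATTCC in 10 (28.6% against 14.0%) and TATAAA in 8 (22.9% against 11.5%). These are matches of letters and not sites shown to be bound.

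Of the 37 genes, 33 were higher in the TNNC1 gate than in each of 6 other lineages (as were 4.17% of the 21789 genes tested), and the 4 that were not were TNNT1, DES, XIRP2 and MYOM1. Levels of the 38 genes differed more between genes than between organoids: the level in 32.7 was above that in 33.10 for 31 of 38 genes, with a median ratio of 1.18, a lowest of 0.335 (XIRP2) and a highest of 2.39 (LMOD2). Since each molecule is counted once at its 3′ end, levels are per molecule and not per length, but intronic reads were counted too, so that long genes such as TTN can gain from priming within introns. By the mean of both organoids, 10 of the 38 genes were above 1000 CPM, 22 above 100 CPM and 33 above 10 CPM.

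Transcripts of the thick filament were mostly those of the atrial and embryonic forms. By patch clamping, the study classed most cardiomyocytes of BG-HFOs as immature ventricular-like, with a minor atrial-like population. The isoform shares given here were not used to assign a chamber. The heavy chain MYH6 (chromosome 14, 23381982 to 23408273, minus strand in GENCODE v44) was at 1772 and 1306 CPM, while its neighbour MYH7 (23412740 to 23435660), the slow and ventricular heavy chain, was at 51.5 and 24.5 CPM. MYH6 thus gave 97.2% (95% exact binomial interval 97.0 to 97.3) and 98.2% (98.0 to 98.3) of the UMIs of the pair. This held in most single cells: of the cells with at least 10 UMIs of the pair, 840 of 1116 and 1107 of 1384 had MYH6 UMIs alone, and 12 and 2 cells had less MYH6 than MYH7. The third heavy chain, MYH7B, was at 34.8 and 31.2 CPM and made up 1.87% and 2.29% of the 3 heavy chains.

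The regulatory light chain followed the same side. MYL7, the atrial form, was at 5070 and 3956 CPM, and MYL2, the ventricular form, at 16.8 and 7.29 CPM, so that MYL7 gave 99.7% and 99.8% of the pair's UMIs. After each cell was thinned to 5000 UMIs, which left out 654 and 388 shallower cells of the gate, a MYL2 UMI was found in 6.17% and 3.39% of the gate's cells and in at most 0.131% of cells in any lineage compared below. The essential light chains were both abundant, unlike the former 2 pairs. MYL4, the atrial and embryonic form, was at 3900 and 3329 CPM and MYL3, the ventricular and slow form, at 1571 and 1212 CPM, and MYL4 gave 71.3% (71.0 to 71.5) and 73.3% (73.1 to 73.5). Cells lay on both sides of that value, with the middle 50% of cells between 64.3% and 79.4% in 32.7 and between 66.1% and 81.3% in 33.10, and only 29 of 1737 and 61 of 2078 cells had MYL4 alone. TTN, the giant spring that spans the sarcomere from Z-disc to M-band, was at 3557 and 3236 CPM. MYBPC3, which bridges myosin and actin, was at 138 and 122 CPM. The M-band gene MYOM1 was at 264 and 289 CPM and its partner MYOM2 at 15.4 and 12.0 CPM, a share for MYOM1 of 94.5% and 96.0%.

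In the thin filament the cardiac troponin T and actin and the fetal troponin I prevailed. TPM1 (tropomyosin) was the member with the most UMIs, at 6544 and 5496 CPM, followed within the thin filament by TNNT2 (cardiac troponin T) at 4516 and 3663 CPM and by cardiac actin, ACTC1, at 3630 and 2317 CPM. Actin was the most unequal of these between the organoids. The fetal troponin I, TNNI1, was at 2786 and 2241 CPM and the adult cardiac form, TNNI3, at 145 and 129 CPM, so that TNNI1 gave 95.1% (94.9 to 95.2) and 94.6% (94.4 to 94.7) of the pair. Both forms were nevertheless widespread, because a TNNI3 UMI was found in 38.8% and 39.7% of the thinned cells. TNNT2 gave 99.2% of the UMIs shared with TNNT1 (slow skeletal troponin T) in both organoids, and ACTC1 gave 99.7% and 99.8% of those shared with skeletal actin, ACTA1, which was at 9.69 and 4.80 CPM. Actin of this kind cannot be divided with full certainty, since the coding sequences of the actin genes are nearly identical and the counts rest on the divergent 3′ ends. LMOD2, which lengthens thin filaments, was at 8.75 and 3.66 CPM.

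Z-disc, signalling and chaperone genes were present at intermediate levels. NEBL (a nebulin relative at the Z-disc) was at 721 and 729 CPM, LDB3 (which holds actinin at the Z-disc) at 350 and 345 CPM, NEXN at 313 and 296 CPM, FHOD3 (a formin that builds thin filaments) at 294 and 341 CPM and ACTN2, the cross-linking actinin of muscle, at 254 and 227 CPM. These 5 varied little between the organoids. CMYA5 (187 and 199 CPM), CSRP3 (a muscle LIM protein, 199.8 and 147 CPM), SMYD1 (a methyltransferase and myosin chaperone, 132 and 140 CPM), ANKRD1 (a stretch-responsive titin-binding protein, 119 and 81.9 CPM) and UNC45B (the myosin chaperone, 95.9 and 91.7 CPM) were lower. TCAP, which caps titin at the Z-disc, was at 72.9 and 41.8 CPM, CRYAB, a small heat shock protein, at 53.1 and 49.3 CPM, and MYOZ2, a calcineurin-binding protein of the Z-disc, at 48.6 and 41.4 CPM. The remaining Z-disc genes XIRP1, DES, MYPN and XIRP2, with TRIM63 (a ubiquitin ligase of muscle), lay at or under 45.1 CPM in both organoids.

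**Figure D1:**
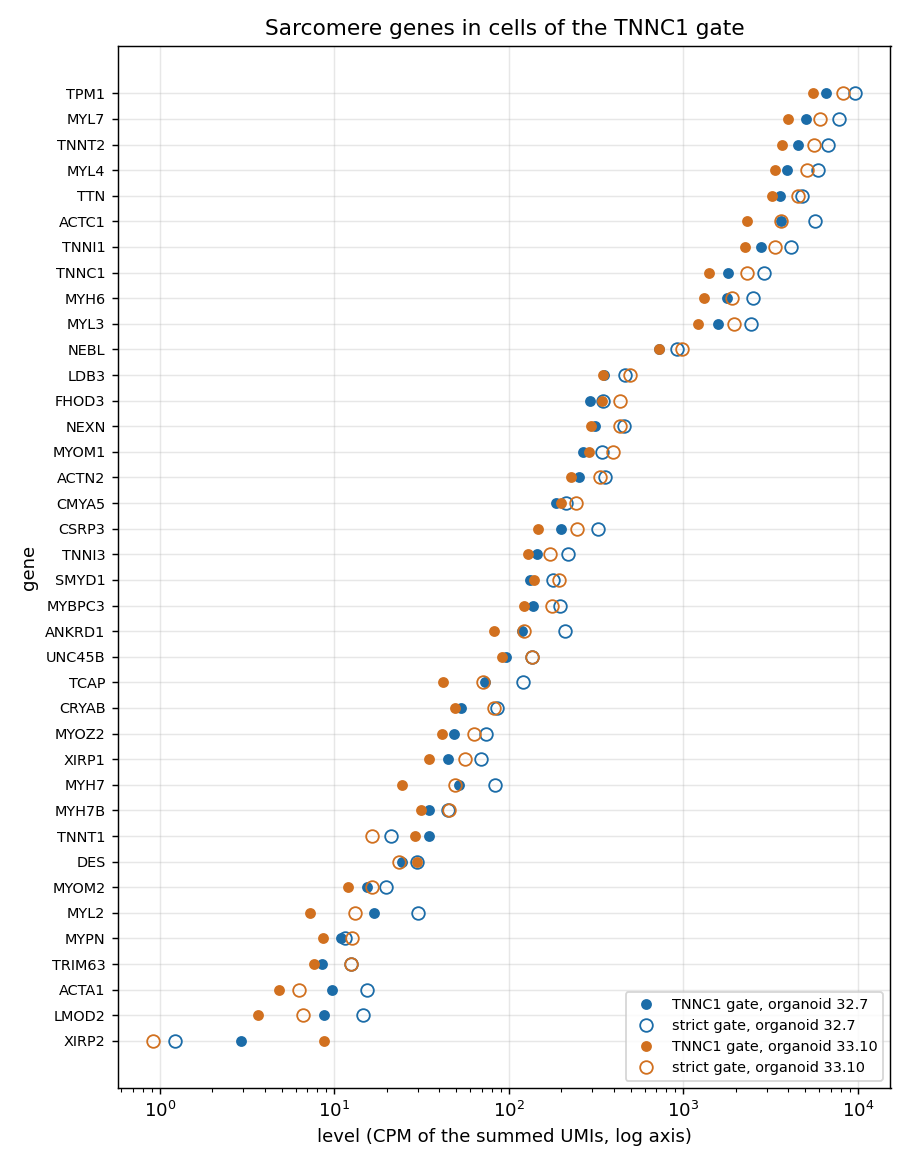
Level of each of the 38 sarcomere genes (y axis) in the cells of the TNNC1 gate, in CPM of the summed UMIs on a log axis (x axis), with filled points for the TNNC1 gate, open points for the strict gate and a colour for each organoid. Most open points lie to the right of the filled ones, by a median ratio of 1.47, while those of TNNT1 and XIRP2 lie to the left.

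Without the cells that also carried another lineage's markers, 35 of 38 levels were higher, with a median ratio of strict to rule gate of 1.47. MYL2 had the highest ratio (1.79), and 3 genes were lower: DES with a ratio of 0.988, TNNT1 with 0.590 and XIRP2 with 0.183. These ratios compare overlapping cells of the same libraries and were not tested. Cells of the strict gate were also shallower, with a median of 5123 and 7461.5 UMIs against 8893 and 11835 in the TNNC1 gate. The part of depth in these ratios was not tested. The isoform shares moved little, to 96.8% and 97.5% for MYH6, 70.8% and 72.2% for MYL4, 94.95% and 95.10% for TNNI1 and 99.7% in both organoids for TNNT2.

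The first comparison asked where each gene stood against cells outside the muscle group, which were endothelial, epicardial, mesenchymal, erythroid, megakaryocyte and myeloid cells, gated by other marker genes and by fewer than 3 UMIs of TNNC1 (656 to 2664 cells each in 32.7 and 420 to 2144 in 33.10). UMIs were summed per organoid and lineage, and the sums of the gate and the lineages were fitted together over 21789 genes with edgeR's quasi-likelihood model, a gene being called at an adjusted p under 0.05. Against endothelial cells, 36 of the 37 genes were higher in the gate, where 32.5% of all genes tested were higher. Against epicardial cells 35 were higher (background 16.7%), against mesenchymal cells 34 (15.6%), against erythroid cells 36 (36.2%), against megakaryocyte cells 34 (31.2%) and against myeloid cells 36 (33.7%). Genes called lower numbered 2 against epicardial cells (background 14.6%), 2 against mesenchymal cells (14.1%), 1 against megakaryocyte cells (23.8%) and 1 against myeloid cells (26.2%). Against endothelial and erythroid cells 0 were lower, where 5470 and 5069 of all 21789 genes were. The gate and the lineages were drawn apart by TNNC1 itself, and genes that vary with TNNC1 between cells share that choice. The median log2 fold change of the 37 genes was 6.57 against endothelial cells (all genes 0.11), 4.17 against epicardial cells (-0.01), 3.97 against mesenchymal cells (-0.01), 5.99 against erythroid cells (0.28), 5.10 against megakaryocyte cells (0.12) and 5.92 against myeloid cells (0.17). The contrast was thus smallest against the epicardial and mesenchymal cells.

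Genes of the contractile core were far apart. MYH6 was at 11.1 and 7.36 CPM in endothelial cells, a log2 fold change of 7.40 ± 0.47 (SE, adjusted p = 1.6e-07), and at 18.7 and 13.9 CPM in epicardial cells (6.70 ± 0.46, adjusted p = 1.6e-06). MYL7 was at 24.1 and 22.4 CPM in endothelial cells (7.63 ± 0.40, adjusted p = 3.5e-08) and ACTC1 at 17.3 and 13.6 CPM (7.62 ± 0.58, adjusted p = 6.5e-07). No endothelial cell gave a MYL2 UMI in 44934843 UMIs, and with 3 UMIs over both organoids as the floor MYL2 was at least 167-fold higher in the gate. In thinned cells, a MYH6 UMI was found in 90.3% and 89.1% of the gate's cells and in 4.09% to 10.5% of cells in the 6 lineages. Free RNA was not removed from these counts, and its part in these shares was not tested.

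**Figure D2:**
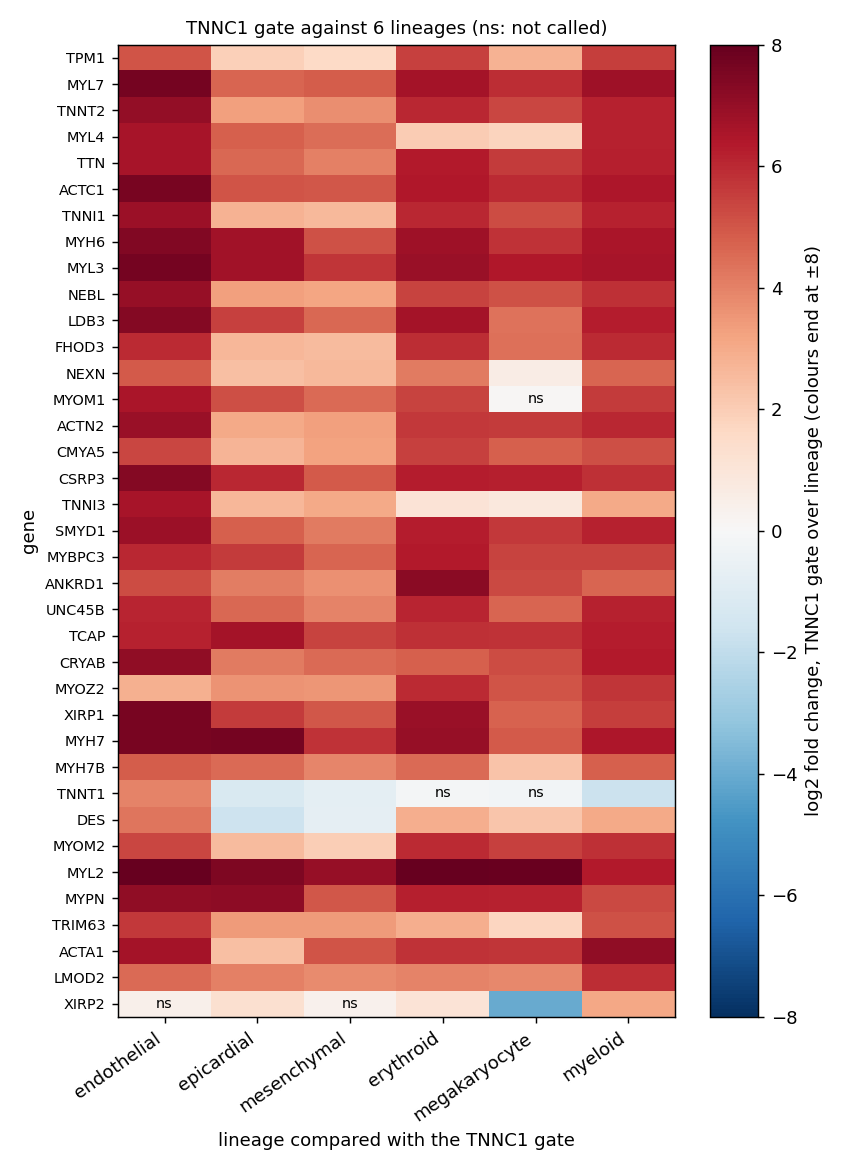
Log2 fold change of the 37 sarcomere genes (rows, in the order of their level) between the TNNC1 gate and 6 lineages (columns), red where higher in the gate and blue where lower, with ns for pairs that were not called. Blue cells are confined to TNNT1, DES and XIRP2, and MYOM1 stands out against megakaryocyte cells at a log2 fold change of 0.12.

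Epicardial and mesenchymal cells, which in the heart arise beside the muscle, gave UMIs of several members, and these were not confined to the thin filament. In the strict gate, log2 fold changes over epicardial cells were 3.39 for TNNI1 and 3.94 for TNNT2. They were 2.97 for CMYA5, 2.98 for NEXN and for FHOD3, and 5.69 for ACTC1 of the thin filament. TPM1, which non-muscle cells also use in their cytoskeleton, was at 1847 and 1722 CPM in epicardial and 2097 and 1981 CPM in mesenchymal cells, and the gate was higher by log2 fold changes of 1.89 ± 0.22 (adjusted p = 7.3e-05) and 1.59 ± 0.22 (adjusted p = 0.00024). With 10% of a sum taken as the library's mean profile and removed, these became 2.04 and 1.71 and were no longer called (adjusted p = 0.17 and 0.25). TNNT2 was at 447 and 465 CPM in epicardial and 285 and 357 CPM in mesenchymal cells, with a UMI in 56.1% and 62.1% of thinned epicardial cells. TNNI1 was at 464 and 344 CPM in epicardial cells and at 494 and 345 CPM in mesenchymal cells, where MYH6 was at 53.3 and 38.9 CPM. For these cells the members as a group stood at a median of 4.50% and 6.37% (epicardial) and 5.25% and 7.20% (mesenchymal) of their level in the gate. Over 5 times that median in both organoids stood DES, TNNT1 and XIRP2 in epicardial cells, and the same genes with TPM1 in mesenchymal cells. TNNT2 and TNNI1 did not. The part of free RNA in these levels was not tested.

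DES went against the group in 2 lineages, and was called higher in the gate than in the other 4. Desmin, the intermediate filament that links Z-discs and is also found in smooth muscle and mesenchyme, was at 24.3 and 29.8 CPM in the gate, at 77.0 and 106 CPM in epicardial cells and at 38.2 and 52.7 CPM in mesenchymal cells. It was lower in the gate than in epicardial cells in both organoids, with a log2 fold change of -1.63 ± 0.22 (adjusted p = 0.00024), and lower than in mesenchymal cells (-0.72 ± 0.22, adjusted p = 0.030). The second call was lost without organoid 32.7 (-0.78, adjusted p = 0.10), without organoid 33.10 (-0.62, adjusted p = 0.22) and with the mean profile removed (adjusted p = 0.077). A DES UMI was found in 9.37% and 10.9% of thinned cells of the gate and in 27.1% and 36.0% of epicardial cells.

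TNNT1 (chromosome 19, 55132698 to 55149206, minus strand, beside TNNI3 at 55151767 to 55157773) was higher in 3 of the 6 lineages than in the muscle group. Slow skeletal troponin T was at 34.8 and 28.9 CPM in the gate but at 80.9 and 107 CPM in myeloid cells, 90.1 and 73.2 CPM in epicardial cells and 62.6 and 48.6 CPM in mesenchymal cells. The gate lay below myeloid cells by a log2 fold change of -1.71 ± 0.18 (adjusted p = 9.0e-06), below epicardial cells by -1.22 ± 0.18 (adjusted p = 0.00035) and below mesenchymal cells by -0.78 ± 0.18 (adjusted p = 0.0060). Of the 6 lineages endothelial cells alone were called lower than the gate, at 2.05 and 2.15 CPM (log2 fold change 3.95 ± 0.22, adjusted p = 6.2e-08). Against erythroid cells (24.0 and 26.2 CPM) and megakaryocyte cells (30.6 and 30.5 CPM) TNNT1 was not called, at -0.16 ± 0.18 and -0.20 ± 0.18, but in the strict gate, where it was at 21.2 and 16.4 CPM, it was called lower there too (-0.93, adjusted p = 0.0012, and -0.97, adjusted p = 0.00099).

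Blood cells carried a small set of members at levels well above the rest. In erythroid and megakaryocyte cells the median member was at 0.926% and 1.29%, and at 2.45% and 2.40%, of its level in the gate. MYL4 was at 639 and 627 CPM in erythroid and 864 and 851 CPM in megakaryocyte cells, which is 14.6 and 9.04 times that median at the lower of the 2 organoids. A MYL4 UMI was found in 92.5% and 90.4% of thinned erythroid cells and 89.6% and 89.4% of megakaryocyte cells, against 16.2% and 16.5% of myeloid and 13.4% and 15.5% of endothelial cells. MYL3 did not accompany it, being at 9.27 and 7.43 CPM in erythroid cells, and MYL4 gave 98.6% and 98.8% of that pair there, above the 71.3% and 73.3% of the gate. The gate remained higher in MYL4, by 2.01 ± 0.15 against erythroid cells (adjusted p = 8.0e-07) and 1.81 ± 0.15 against megakaryocyte cells (adjusted p = 1.7e-06).

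TNNI3 lay still closer to its level in the gate, at 28.4 times the median ratio of erythroid and 16.9 times that of megakaryocyte cells in the lower organoid. It was at 38.2 and 53.8 CPM in erythroid and 59.95 and 67.6 CPM in megakaryocyte cells, where TNNI1 was at 26.6 and 27.5 CPM and 62.8 and 50.3 CPM. TNNI1 therefore gave 41.1% (37.5 to 44.8) and 33.8% (31.6 to 36.0) of the pair in erythroid cells and 51.1% and 42.7% in megakaryocyte cells, below its 95.1% and 94.6% in the gate. The intervals cover counting error only, and those of the organoids in erythroid cells did not overlap each other. The gate was higher in TNNI3 by 1.08 ± 0.18 against erythroid cells (adjusted p = 0.00027) and by 0.83 ± 0.18 against megakaryocyte cells (adjusted p = 0.0017), the latter not called without organoid 32.7 (0.67, adjusted p = 0.065). In endothelial cells, where TNNI3 was at 1.08 and 1.94 CPM, TNNI1 gave 95.2% and 92.3%. Shares of TNNT2 differed between lineages as well, from 93.4% and 94.0% in endothelial cells down to 44.4% and 26.1% in myeloid cells.

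**Figure D3:**
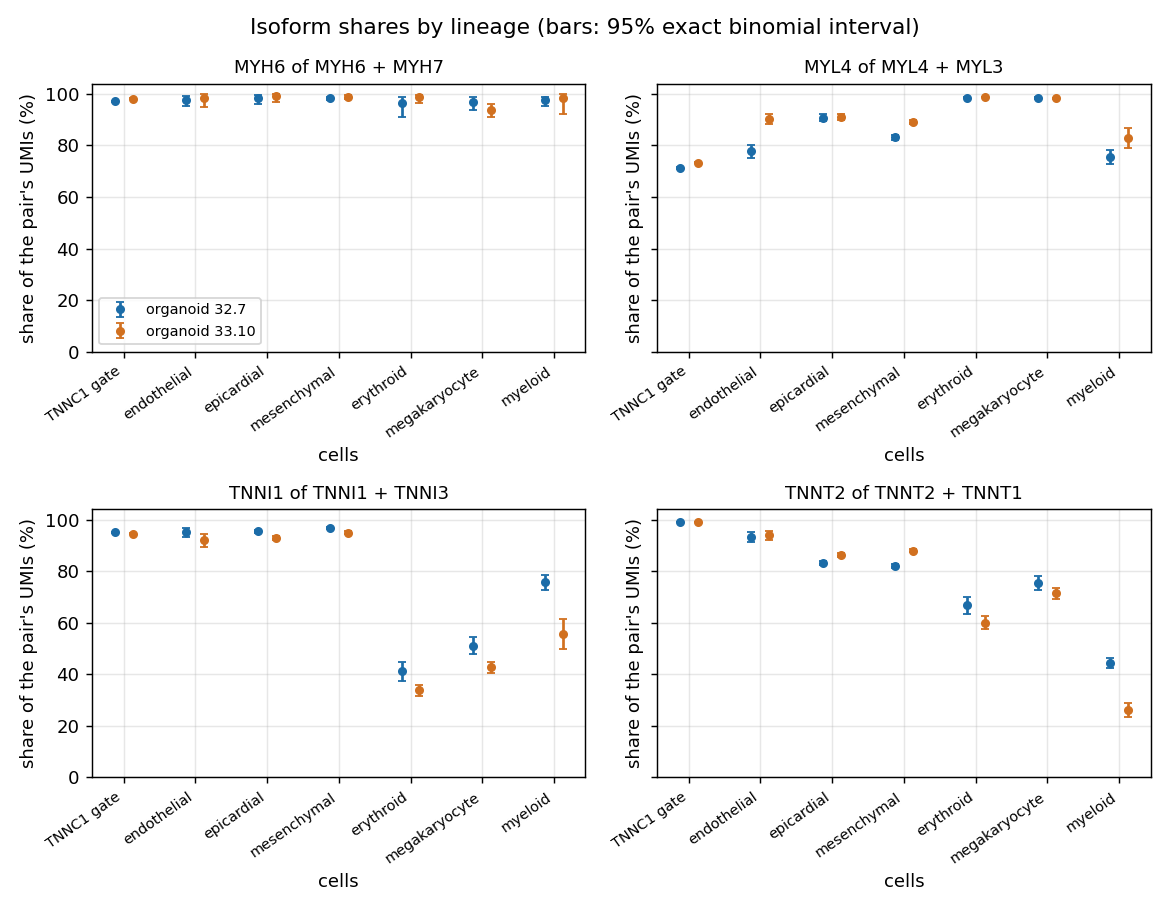
Share of the first gene in the UMIs of a pair (y axis, %) in the TNNC1 gate and 6 lineages (x axis), 1 point per organoid with its 95% exact binomial interval, which covers counting error only. The MYH6 share lies between 93.9% and 99.1% in all groups, while TNNI1 and TNNT2 shares fall to 33.8% and 26.1% in blood lineages and the MYL4 share is lowest in the gate.

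Megakaryocyte cells held 9 members at over 5 times the median ratio of all members to the gate in both organoids: XIRP2, TNNT1, MYOM1, NEXN, TNNI3, MYL4, TRIM63, DES and MYH7B, in that order. Several of these were not particular to megakaryocyte cells. XIRP2 and TNNT1 passed this cut in every lineage of the fit, and DES in all of them but endothelial cells. TNNI3 passed it in erythroid and myeloid cells too, and MYL4 and TRIM63 in erythroid cells. XIRP2 and TRIM63 were low in the gate (means of 5.81 and 8.05 CPM), so few UMIs could bring them past the cut in some lineages. XIRP2 (chromosome 2, 166888480 to 167259753), an actin-binding repeat protein of muscle cell junctions, was at 81.3 and 76.7 CPM in megakaryocyte cells, at 2.92 and 8.71 CPM in the gate and at or under 5.17 CPM in the other lineages. The gate was lower by a log2 fold change of -4.01 ± 0.38 (adjusted p = 3.8e-06), and a XIRP2 UMI was found in 27.5% and 26.7% of thinned megakaryocyte cells against 1.19% and 2.97% of the gate's. Against endothelial and mesenchymal cells XIRP2 was not called, at 0.40 ± 0.38 and 0.37 ± 0.37. It was called higher than in epicardial cells (1.28 ± 0.42, adjusted p = 0.037), erythroid cells (1.08 ± 0.43, adjusted p = 0.049) and myeloid cells (3.10 ± 0.59, adjusted p = 0.00075). In the strict gate, at 1.21 and 0.917 CPM, the direction turned and XIRP2 was lower than in endothelial (-2.06), epicardial (-1.15), mesenchymal (-2.05) and erythroid cells (-1.40), with adjusted p from 0.00016 to 0.025, while the call against myeloid cells was lost (0.59, adjusted p = 0.32). The gate's XIRP2 level went with its megakaryocyte markers, whose sum was 974 and 2290 CPM in the gate and 227 and 266 CPM in the strict gate, and their part in it was not tested.

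MYOM1, the M-band protein, was at 213 and 210 CPM in megakaryocyte cells and at 264 and 289 CPM in the gate, a log2 fold change of 0.12 ± 0.29 (adjusted p = 0.75), and at or under 13.1 CPM in the 5 other lineages. A MYOM1 UMI was found in 44.4% and 43.99% of thinned megakaryocyte cells. In the strict gate with organoid as a block the gate was called higher (0.53, adjusted p = 0.037). MYOM2 was at 0.128 and 0.304 CPM in those cells, and MYOM1 gave 99.9% of the pair in both organoids. NEXN, an actin-binding protein of the Z-disc, was at 167 and 174 CPM in megakaryocyte cells and higher in the gate by 0.57 ± 0.12 (adjusted p = 0.0018), a call that was lost without organoid 32.7 (0.51, adjusted p = 0.052), with the mean profile removed (0.62, adjusted p = 0.055) and in cells gated by NKX2-5 in place of TNNC1 (0.24, adjusted p = 0.093). TPM1 was at 736 and 706 CPM in megakaryocyte cells, with a UMI in 84.0% and 80.3% of thinned cells. In endothelial cells 3 members passed 5 times the median ratio, XIRP2 (42.1 times in the lower organoid), MYOZ2 (12.1) and TNNT1 (5.90). Of these, MYOZ2 alone passed it in no other lineage. MYOZ2 was at 5.83 and 7.20 CPM in endothelial cells, and the gate was higher by 2.83 ± 0.26 (adjusted p = 2.9e-06).

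**Figure D4:**
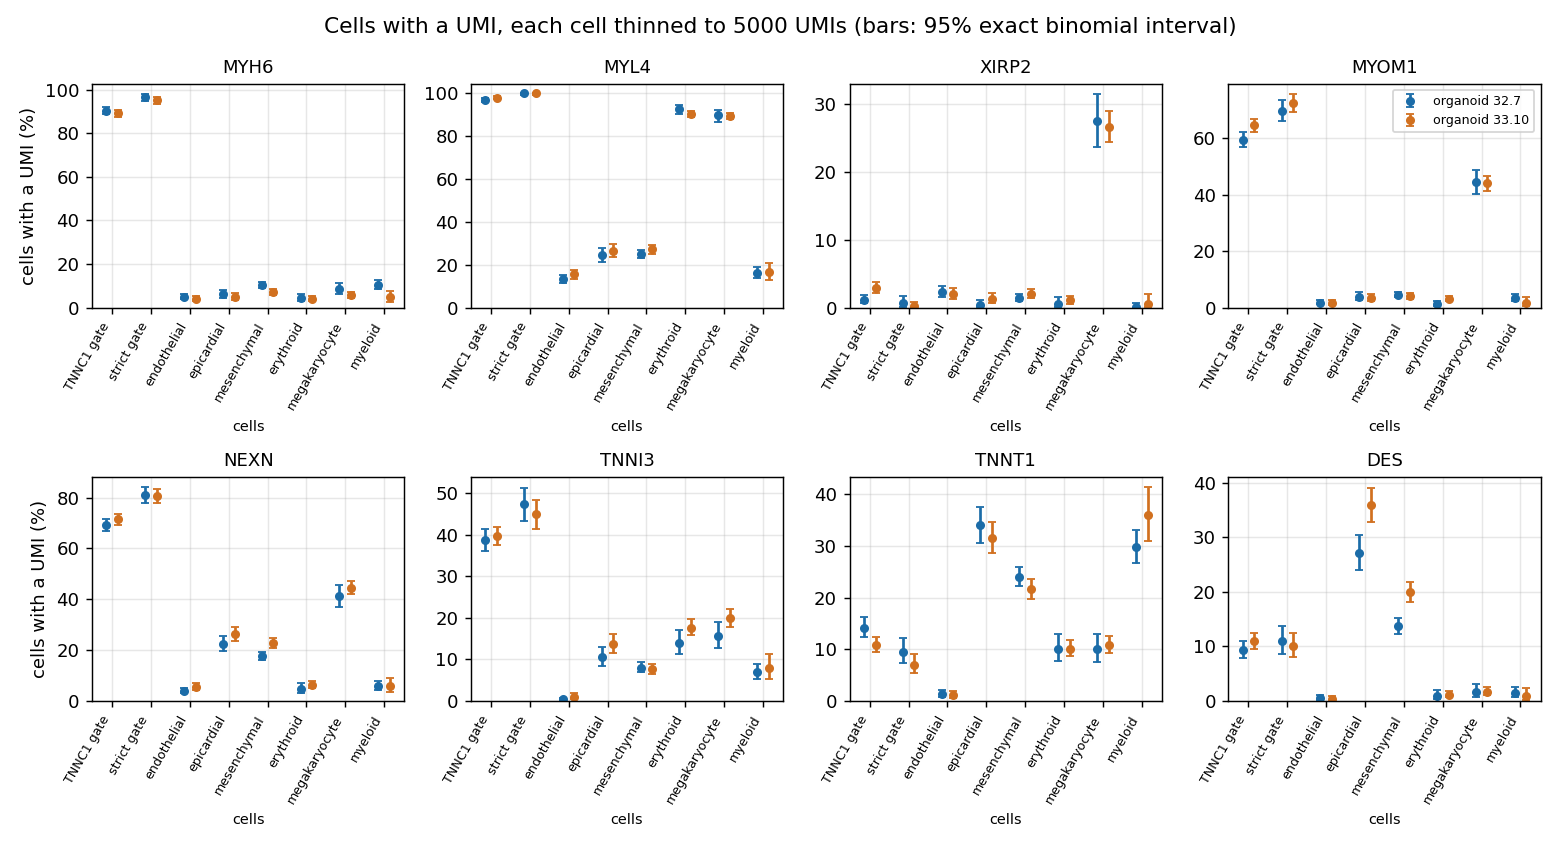
Share of cells with a UMI (y axis, %) for 8 genes in the TNNC1 gate, the strict gate and 6 lineages (x axis), each cell thinned to 5000 UMIs, 1 point per organoid with its 95% exact binomial interval for counting error. MYH6 was found in 90.3% and 89.1% of the gate's cells and few others, MYL4 also in erythroid and megakaryocyte cells, XIRP2 mainly in megakaryocyte cells (27.5% and 26.7%), and TNNT1 and DES most often in epicardial or myeloid cells.

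The second comparison asked whether cycling cells of the TNNC1 gate carried fewer sarcomere transcripts than its non-cycling cells. Most of the cycling cells also passed another lineage's gate, since the strict gate kept 23 and 37 of them. It kept 1092 and 1068 of the non-cycling cells. Cycling cells of the gate had at least 10 UMIs over 10 genes of division (MKI67, TOP2A, CENPF, UBE2C, BIRC5, CDK1, CCNB1, HMMR, AURKB and TPX2; 171 and 293 cells) and non-cycling cells had at most 2 (1607 and 1796 cells). The 37 genes made up 1.67% and 1.64% of the summed UMIs of cycling cells and 4.51% and 3.75% of those of non-cycling cells. Of the 37 genes 30 were lower in cycling cells, where 9.75% of the 21436 genes tested were lower, and 1, TNNT1, was higher (background 11.3%). The median log2 fold change was -1.35 (all genes -0.04). MYH6 was at 733 and 610 CPM in cycling and 2192 and 1657 CPM in non-cycling cells, a log2 fold change of -1.54 ± 0.35 (adjusted p = 0.0088), and MYL4 fell by 1.33 on the log2 scale (adjusted p = 5.1e-05). TNNT1 was at 48.4 and 39.5 CPM against 29.5 and 23.8 CPM (0.70 ± 0.20, adjusted p = 0.023). With 32.7 left out the median log2 fold change of the 37 genes was -1.22 (all genes -0.04), and with 33.10 left out it was -1.47 (all genes -0.05).

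Fewer genes were called once cells with another lineage's markers were left out, which also left fewer and shallower cycling cells. In the strict gate 2 genes were lower in cycling cells (23 and 37 cells) than in non-cycling cells (1092 and 1068 cells), where 1.15% of genes tested were lower. With organoid as a block 5 were, as were 287 of all 21189 genes tested. The median log2 fold change in the strict gate without the block was -0.52 (all genes -0.20), with 31 of 37 genes below 0 and 15 with an unadjusted p under 0.05. TNNI3 was at 102 and 86.4 CPM in cycling cells and 226 and 185 CPM in non-cycling cells (-1.27 ± 0.22, adjusted p = 0.0033), and CMYA5 at 157 and 103 CPM against 218 and 258 CPM (-1.05 ± 0.24, adjusted p = 0.019). The block added LDB3, MYH6 and MYL4. MYH6 was at 2146 and 1125 CPM against 2558 and 1991 CPM there (-0.61 ± 0.37, adjusted p = 0.49; with the block -0.65, adjusted p = 0.048). The 37 genes made up 4.99% and 3.50% of UMIs against 5.58% and 4.65%. Cycling cells of the TNNC1 gate carried more of the erythroid check genes (7092 and 8472 CPM, against 1349 and 1940 CPM in non-cycling cells) and of the myeloid ones (1049 and 334 CPM against 198 and 114 CPM), and fewer of the cardiac ones (2598 and 2794 CPM against 6070 and 6856 CPM). In the strict gate the erythroid sums were 183 and 357 CPM against 237 and 421 CPM, and the cardiac sums 3497 and 3880 CPM against 6354 and 7520 CPM. The cycling cells of the TNNC1 gate were also deeper, with a median of 24929 and 29562 UMIs against 7629 and 10011. In the strict gate these medians were 10260 and 17248 UMIs against 4932.5 and 7151.5. The part of other markers, depth and number of cells in either count was not tested.

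**Figure D5:**
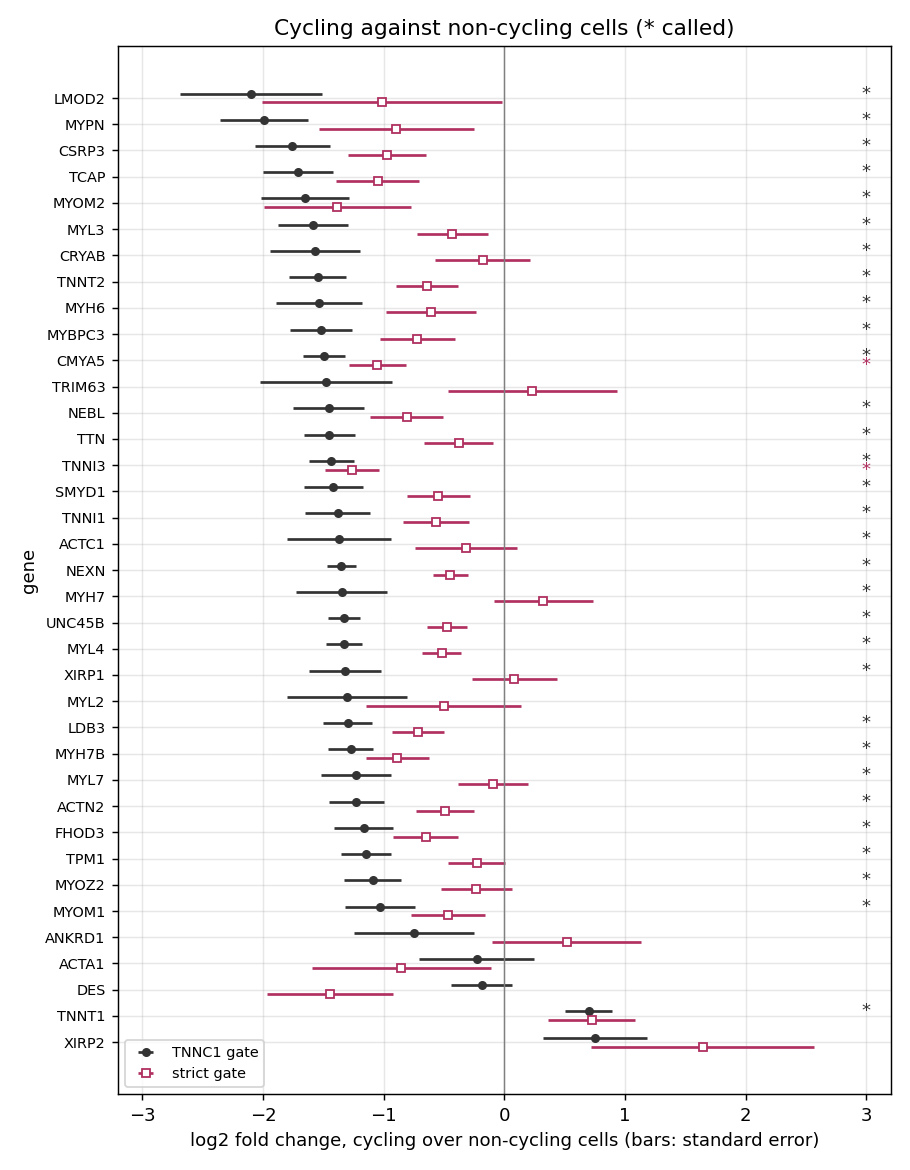
Log2 fold change of each of the 37 genes (y axis) between cycling and non-cycling cells (x axis) with its standard error, black for the TNNC1 gate and open red for the strict gate, an asterisk at the right marking genes called. In the TNNC1 gate 30 genes are called lower and 1 higher, and in the strict gate 2 are called lower.

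The third comparison followed the rare cells with the ventricular light chain. Cells with at least 3 UMIs of MYL2 numbered 32 and 19, too few in 33.10 for a fit that asked for 20 cells in each organoid. In them MYH6 gave 88.3% (86.4 to 90.1) and 96.3% (94.7 to 97.6) of its pair with MYH7, against 97.7% and 98.4% in cells with no MYL2 UMI. The lower share in 32.7 rested on few cells, 3 of which held 57.6% of the 144 MYH7 UMIs. A comparison chosen after the data were seen took all cells with a MYL2 UMI (219 and 179) against those without (1780 and 2096), of which the former were deeper, with a median of 11860 and 18163 UMIs against 8702 and 11422.5. Besides MYL2, which made the groups, 0 of 36 genes were called with edgeR, and 6 of the 36 had an unadjusted p under 0.05. Over all 21766 genes tested 1 was called in either direction (0.00459%), a count that did not leave MYL2 out. DESeq2 called 0 of the 31 genes to which it gave an adjusted p, where 13 genes were higher and 5 lower of 12482. MYH7 was at 120 and 53.2 CPM against 40.3 and 21.1 CPM, higher in both organoids, with a log2 fold change of 1.48 ± 0.39 (adjusted p = 0.66). With organoid as a block MYH7 was called (1.44 ± 0.15, adjusted p = 0.0033). In cells gated by NKX2-5 in place of TNNC1, 9 of the 36 genes were called, all higher with a MYL2 UMI (ACTN2, LDB3, MYBPC3, MYH7, MYH7B, MYL4, MYOM1, TCAP and TNNI3), where 0.382% of 21750 genes were higher and 155 genes lower. The median log2 fold change of the 36 genes there was 0.83 (all genes -0.10). That gate asked for a NKX2-5 UMI and no CDH5 UMI, with no cut on TNNC1. It held 2230 and 2512 cells, of which 175 and 157 had a MYL2 UMI. Cells with a MYL2 UMI were deeper in that gate too, with a median of 14250 and 18805 UMIs against 10416 and 12347. The part of depth and of the gate's mix of cells was not tested. In the TNNC1 gate MYL4 gave 67.9% and 71.3% of its pair in cells with a MYL2 UMI and 72.0% and 73.6% in those without, a difference of the same sign in both organoids.

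Other genes of the sarcomere, the Z-disc and their chaperones were read from a list of 50 genes, of which 47 were tested. Between 29 and 39 of these were higher in the gate than in a given lineage, where 15.6% to 36.2% of all genes tested were higher. Against megakaryocyte cells 13 were lower, near the share of all genes lower there (23.8%), and against the other lineages 2 to 5 were lower. MYL6, the light chain of non-muscle and smooth muscle myosin, was at 2413 and 2321 CPM in the gate, and HSPB7, a small heat shock protein of heart muscle, was higher than in endothelial cells by 7.29 ± 0.34 (adjusted p = 1.6e-08). Of 13 genes for forms used by skeletal muscle, 6 passed the filter on low counts, and TNNC2, fast skeletal troponin C, was at 5.50 and 5.11 CPM in the gate. Of these 6 genes, 5 were higher in the gate than in endothelial cells, 3 than in erythroid cells and 2 than in each other lineage. Against megakaryocyte cells 1 was lower, and against myeloid cells 2 were (all genes 23.8% and 26.2%). ACTN3, the fast-muscle actinin, was higher in the gate than in endothelial cells (5.16 ± 0.63, adjusted p = 4.7e-05), at 5.59 and 4.26 CPM in the gate.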

How the data were processed

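Per the labels and the study's methods, 2 BG-HFOs were dissociated and sequenced with the Chromium 3′ v3.1 kit, 1 library per organoid. The authors aligned the reads with Cell Ranger 7.0.0 to GRCh38 and counted UMIs with intronic reads included, and the deposited counts are whole UMIs per gene and barcode without normalization. Free RNA had not been removed from them, nor doublets, and no doublet caller was used here. Organoid 32.7 held 191152562 UMIs in 16866 barcodes and 33.10 held 233818881 in 19948 (medians 7842 and 8284.5). Intervals cover counting error only.

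The study's filter, from 50 to 11000 genes detected and mitochondrial counts below 30%, left 16792 and 19893 cells. Lineages were gated on raw UMIs: endothelial from CDH5 (at least 3), epicardial from WT1, TBX18, UPK3B, BNC1 and ITLN1 (3), mesenchymal from PDGFRA, PRRX1, TWIST1 and LUM (3), erythroid from a list that includes ALAS2, EPB42 and TRIM10 (5; one of its genes is not reported here), megakaryocyte from ITGA2B, GP9, GP6, ITGB3 and GP1BA (5) and myeloid from SPI1, CSF1R, CYBB, CD33 and MNDA (3). Such a cell passed no other gate, except that epicardial cells could pass the mesenchymal one. UMIs were summed per organoid and gate, CPM are relative to that sum, and sums were tested with edgeR 4.0.16 (R 4.3.3, TMM, filterByExpr, quasi-likelihood, Benjamini-Hochberg over all genes tested, threshold 0.05), with a check on simulated counts. The standard error is the log2 fold change over the square root of F. The study tested single cells with MAST, which was not used. The same organoid gave 1 sum to each gate, so the organoid pairs the sums: its deviations correlated in 20 of 21 pairs of gates over 0.1 (r from 0.06 to 0.66 over 11032 genes). The reported fits did not use this pairing. Organoid as a block was run as an alternative.

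Alternatives were DESeq2, its size factors, no filter, organoid as a block, at least 10 TNNC1 UMIs, the strict gate, a gate on NKX2-5, cells with at least 2000 UMIs and under 15% mitochondrial counts, leaving out the deepest 10% of cells, removing 10% as the library's mean profile, leaving out each organoid and leaving out shared barcodes. In the fits, leaving out an organoid dropped its sums of both groups compared, and its other sums stayed. All members could be named, and of the other lists up to 4 examples each. The members and lists were chosen with earlier results of these data known.

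Positions are from GENCODE v44 on GRCh38, matched by Ensembl ID for all 38 genes. Of these, 17 overlap a gene on the other strand and TTN overlaps CCDC141 on its own strand, so its count may include reads of that gene.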

Additional observations from a re-analysis of the deposited data

How the results depend on the processing

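Counts of genes higher in the TNNC1 gate stayed within 1.5 times of the reported ones for all 6 lineages under every alternative run. For cycling against non-cycling cells, 31 genes were called, against 20 with the mean profile removed, 2 in the strict gate, 5 in the strict gate with organoid as the replicate block, and 11 to 18 without 1 organoid. The block alone called 33. For cells with and without a MYL2 UMI, 0 genes were called. Without the filter on low counts 1 was (all genes 4 higher and 43 lower of 32728), with the block 1 (3 and 0 of 21766) and in the strict gate with the block 1 (4 and 8 of 21380). The gate on NKX2-5 called 9. All of these were higher with a MYL2 UMI, as were 0.382% of the 21750 genes tested in the gate on NKX2-5, where 155 genes were lower. In the strict gate the block also brought MYOM1 against megakaryocyte cells past the threshold (adjusted p = 0.12 without it and 0.037 with it). Added to the reported fits, it brought MYH7 past the threshold in cells with a MYL2 UMI (adjusted p = 0.0033). In the lineage and cycling fits it changed no other call of the genes tested by name. The TNNT2 share, 99.2% with nearly the same value in both organoids, became 99.4% at 10 TNNC1 UMIs, 99.7% in the strict gate, 99.1% in the gate on NKX2-5, 99.2% under the stricter cell filter, 99.4% without the deepest cells and 99.3% with the mean profile removed. Log2 fold changes that turned were XIRP2 in the strict gate (-2.06 against endothelial, -1.15 against epicardial, -2.05 against mesenchymal and -1.40 against erythroid cells, and with the block -2.07, -1.15, -2.06 and -1.41), XIRP2 without 1 organoid (-0.74 to 1.07 against endothelial and -0.47 to 0.79 against mesenchymal cells), TNNT1 against erythroid cells without 1 organoid (-0.31 to 0.0012) and MYOM1 against megakaryocyte cells in the gate on NKX2-5 (-0.23). The cause was not tested. XIRP2 against erythroid cells was no longer called under DESeq2's size factors, at 10 TNNC1 UMIs, without the deepest cells, without shared barcodes or without 33.10, and against epicardial cells without 33.10 (0.63, adjusted p = 0.34). It was called against endothelial cells without 32.7 (adjusted p = 0.026). MYH6 and TNNT1 in cycling cells were not called without either organoid. DESeq2's size factors moved the median of all genes against erythroid cells from 0.28 to 0.16. With 1 organoid left out, only its sums of both groups compared were dropped. The other groups of both organoids stayed in the fit, and the lone sums were assumed to vary like them. The planned split at 3 MYL2 UMIs and the foregut endoderm comparison (23 and 12 cells) could not be run, since 33.10 had under 20 cells in each.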

Other observations

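Transcription factors of heart development were read from a list of 16 genes, all tested. In the TNNC1 gate 15 of the 16 were higher than in erythroid cells and 15 than in myeloid cells (all genes 36.2% and 33.7%). Of the 16, 13 were higher than in megakaryocyte cells (31.2%) and 10 than in endothelial cells (32.5%). Against epicardial and mesenchymal cells 8 each were higher (16.7% and 15.6%) and 4 each lower (14.6% and 14.1%). Against endothelial cells 4 were lower, a similar share to the 5470 of all 21789 genes. MYOCD, a coactivator of serum response factor in heart and smooth muscle, was at 356 and 403 CPM and higher than in endothelial cells by 7.26 ± 0.21 (adjusted p = 8.8e-10). IRX4, a ventricular factor, was higher than in endothelial cells by 7.91 ± 0.73 (adjusted p = 3.0e-06). MEF2A was at 379 and 407 CPM and MEF2C at 361 and 393 CPM.

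Foregut endoderm cells, 23 and 12 in number and outside the fit, held 8 members at over 5 times their median ratio to the gate in both organoids: ANKRD1, CMYA5, CRYAB, NEBL, NEXN, TNNI3, TNNT1 and TPM1. Their sums held 494910 and 288808 UMIs, and that median ratio was 0.342% and 0.265%. A few UMIs could therefore bring a member past the cut, and none of these members was tested.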
